A study of Saccharomyces cerevisiae with 12 samples.

Results

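Yeast cells build their membranes from 3 lipid families, and the genes described here encode the enzymes of those families and the regulators of 1 of them. They numbered 44 of the 5045 genes in the deposited table and were chosen by name, as steps of sterol, phospholipid and sphingolipid metabolism. The sterol genes were 23, of which 10 lead from acetyl-CoA to squalene (the mevalonate genes) and 13 from squalene to ergosterol (the late sterol genes). The phospholipid genes were 8 enzymes and 3 regulators, and the sphingolipid genes were 10. All 44 were listed, and all 44 passed the filter on low values, which asked for a mean value of 10 or more.

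PolyA RNA was sequenced in 12 libraries of the Saccharomyces cerevisiae strain Sis1-AA, in YPD, a rich medium. In the heat shock course, cells moved to 39 °C were sampled after 15, 30, 60, 90 and 120 min, against an untreated library at 30 °C. In the rapamycin course, cells given 1 µM rapamycin were sampled at the same times, against an untreated library of their own, at a temperature that the labels do not give. Rapamycin is used in the anchor-away method to tie a tagged nuclear protein to an anchor that leaves the nucleus, here Sis1, a J-domain partner of Hsp70. All libraries came from this 1 strain, so the drug and the loss of nuclear Sis1 cannot be told apart. Protein levels were not measured. Each time point had 1 library and none was replicated.

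Ergosterol is the main sterol of yeast membranes and is made by a long oxygen-dependent pathway that starts from acetyl-CoA and passes through mevalonate, squalene and lanosterol. Phosphatidylcholine can be made by methylating phosphatidylethanolamine, and several genes of this branch are switched on by the Ino2-Ino4 activator and held down by the Opi1 repressor. Sphingolipids grow from serine and a fatty acid through long-chain bases to ceramide, and heat is known to make long-chain bases and ceramides accumulate in yeast.

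Between 2991418 and 4379304 reads per library fell in listed genes. Values are normalized read counts as deposited, and runs of 6 values follow the times 0, 15, 30, 60, 90 and 120 min. A count of 0 allows up to 3 reads, or 2.44 to 4.28 in this unit. Intervals and limits of this kind cover counting error only. SIS1 mRNA stood at 2811 to 4197 with rapamycin, against 443.0 untreated, and HSP104, a heat shock gene, at 9854 to 56611 in heat, against 1010 untreated. A change is treated minus untreated of the same course on the log2(value + 1) scale, and a mean change is the limma estimate over the 5 treated times with its standard error (SE). A gene is said to rise or fall where its Benjamini-Hochberg adjusted p in limma over 4937 genes was under 0.05. These p-values rest on the scatter of the treated libraries around a line against log2(time). They carry no information on how replicate cultures would vary, and each course has a single untreated library. In bulk RNA, fewer cells expressing a gene and less of its RNA per cell cannot be told apart.

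Heat shock lowered most of the sterol genes and all 8 sphingolipid genes other than the ceramidases, and raised 6 of the 11 phospholipid genes. Over the 44 genes, 8 rose and 27 fell in heat, or 35 changed, where 69.8% of all tested genes changed (32.6% rose and 37.2% fell). The median mean change was −0.62 for the lipid genes and −0.08 for all tested genes. None of the 23 sterol genes rose and 17 fell (median −0.75), with 1 rise and 14 falls (median −0.48) under equal totals and 2 rises and 11 falls (median −0.45) under quantile normalization. Of the phospholipid genes 6 rose and 2 fell (median 0.42), and of the sphingolipid genes 2 rose and 8 fell (median −0.83). All 5 heat libraries were below the untreated one for 29 of the 44 genes, against 41.3% of all tested genes.

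The rapamycin course moved fewer of them. There 2 genes rose and 11 fell, or 13 changed, where 26.3% of all tested genes changed (12.3% rose and 13.9% fell), and the medians were −0.15 and −0.05. The sterol genes again held no rise, with 7 falls, of which 5 were late sterol genes (median −0.57) and 2 were mevalonate genes (median 0.06). The phospholipid genes held 1 rise and 2 falls, and the sphingolipid genes 1 rise and 2 falls. All 5 rapamycin libraries were below untreated for 20 of the 44 genes, against 35.9% of all tested genes. With the values scaled to equal totals, which lifted the median change of all tested genes in heat to 0.20, the phospholipid genes had 8 rises and 1 fall in heat. The same scaling gave the sphingolipid genes 2 rises and 5 falls in heat, and all tested genes 2063 rises and 1357 falls in heat and 788 and 427 with rapamycin. With the deposited scaling all tested genes had 1607 rises and 1839 falls in heat and 609 and 687 with rapamycin. With rapamycin the sphingolipid genes had 2 rises and 2 falls under equal totals, and 2 rises and 0 falls under quantile normalization.

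**Figure D1:**
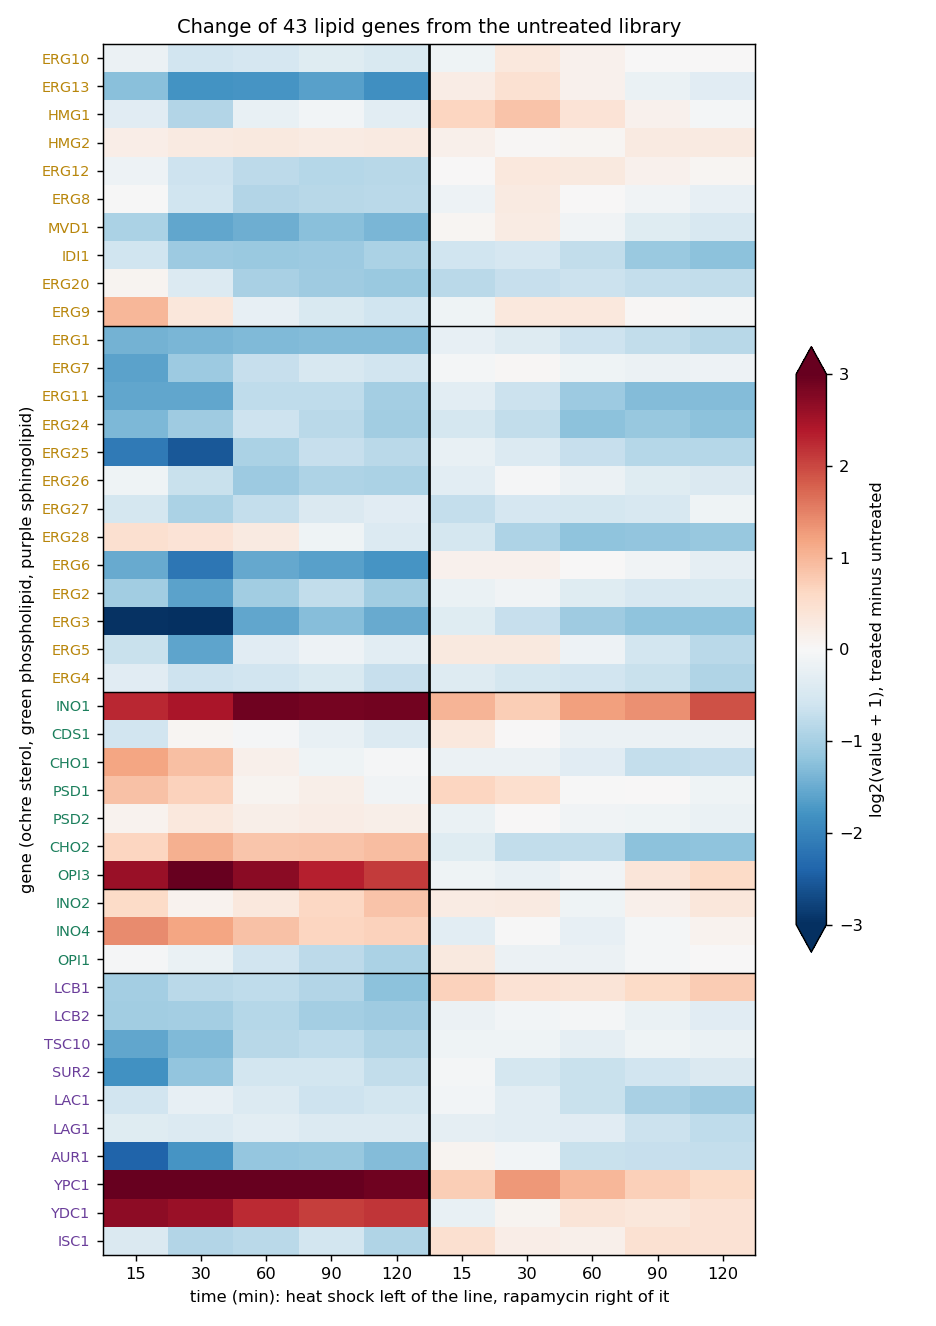
Log2 change of each of 43 lipid genes from the untreated library of its course, in 5 heat shock libraries (left) and 5 rapamycin libraries (right); red is higher and blue lower than untreated, and horizontal lines divide the gene groups. Heat shock columns are mostly blue for sterol and sphingolipid genes and red for INO1, CHO2, OPI3, YPC1 and YDC1, and CHO2 is blue with rapamycin.

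The highest untreated levels belonged to some of the late sterol enzymes. Per kilobase of coding length, the highest values in the untreated heat shock library were 4691 for ERG25 and 4627 for ERG11, and the lowest were 42.7 for INO1 and 118 for PSD2. In the untreated rapamycin library ERG2 (3907) and ERG25 (3726) led, and INO1 (45.5) and HMG2 (110) were lowest. The medians over the 44 genes were 910 and 854 in the untreated heat shock and rapamycin libraries. Of the late sterol genes, ERG7 (735 and 673) and ERG24 (797 and 589) lay below these medians. The untreated libraries differed by at least 0.5 on the log2 scale in 5 genes, ERG13 (0.52), HMG2 (0.68), ERG6 (0.52), LCB1 (0.97) and ISC1 (0.85), all higher in the untreated heat shock library. Such a difference was found in 11.5% of all tested genes.

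From acetyl-CoA to squalene, 6 of the 10 mevalonate genes fell in heat and none rose, where 37.2% of all tested genes fell and 32.6% rose. ERG13 (YML126C), which encodes HMG-CoA synthase, fell furthest. Its value in the heat shock course was 4970 untreated and 2088, 1433, 1444, 1599 and 1389 at 15, 30, 60, 90 and 120 min, and in the rapamycin course it was 3470 untreated and 4038, 4771, 3825, 3005 and 2723 at 15, 30, 60, 90 and 120 min. All 5 heat libraries lay below both untreated ones, while the rapamycin libraries lay on either side of their own untreated value. Its mean change was −1.66 ± 0.21 (adjusted p 5.16e-05 in limma) in heat and 0.05 ± 0.21 (adjusted p 0.873) with rapamycin. MVD1, the mevalonate pyrophosphate decarboxylase, changed by −1.31 ± 0.21 in heat and −0.13 ± 0.21 with rapamycin. ERG12 and ERG8, the mevalonate and phosphomevalonate kinases, fell by 0.65 and 0.63 in heat and were not called with rapamycin. The call of ERG8 was lost with equal totals and with quantile normalization.

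IDI1 (isopentenyl diphosphate isomerase) and ERG20 (farnesyl pyrophosphate synthase) fell in both courses. IDI1 changed by −0.97 ± 0.18 in heat and −0.84 ± 0.18 with rapamycin (adjusted p 6.98e-04 and 0.00888 in limma). ERG20 changed by −0.70 ± 0.13 in heat and −0.72 ± 0.13 with rapamycin (adjusted p 6.50e-04 and 0.00397), and the heat call was lost under quantile normalization. ERG10, the thiolase that opens the pathway, and ERG9, the squalene synthase that closes it, had heat changes of −0.42 and 0.01 that were not called. ERG9 stood at 3091 at 15 min of heat, against 1550 untreated, was still above untreated at 30 min, and was below it from 60 min on. Over the treated heat libraries its slope was −0.53 per doubling of time (adjusted p 2.49e-04 in limma).

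HMG-CoA reductase, the rate-limiting enzyme of this stretch, is encoded by HMG1 and HMG2. HMG1 (YML075C) stood at 2499 untreated and then 1970, 1348, 2148, 2368 and 2001 in the heat shock course and at 1845 untreated and then 2873, 3331, 2474, 2023 and 1776 in the rapamycin course. HMG2 (YLR450W) stood at 554.8 untreated and then 635.5, 666.2, 678.5, 660.8 and 665.3 in the heat shock course and at 346.5 untreated and then 387.3, 355.6, 357.6, 421.0 and 417.1 in the rapamycin course. HMG1 had the higher count of the pair in every library, and per kilobase it held 789 and 583 in the untreated heat shock and rapamycin libraries, where HMG2 held 177 and 110. Neither was called in either course (HMG1 −0.37 ± 0.25 in heat and 0.40 ± 0.25 with rapamycin, HMG2 0.25 ± 0.12 and 0.16 ± 0.12). The longest run of identical bases in their coding regions was 23, and no window of 50 bases was shared. The heat change of HMG2 was called in 8 of 24 alternatives. With the untreated libraries exchanged it was 0.93, and the rapamycin change was −0.52, both called, and HMG1 turned in sign in both courses (0.07 in heat and −0.04 with rapamycin).

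From squalene on, 11 of the 13 late sterol genes fell in heat, where 37.2% of all tested genes did. All 5 heat libraries were below untreated for 12 of the 13, against 41.3% of all tested genes. ERG3 (YLR056W), the sterol desaturase, fell most of all 44 genes. Its value was 4450 untreated and then 570.4, 469.4, 1522, 1840 and 1547 in the heat shock course and 3514 untreated and then 2727, 2199, 1679, 1518 and 1518 in the rapamycin course. The 30 min heat library held 396 reads of ERG3, against 3120 in the untreated one, a ratio of values of 0.106 (95% exact interval 0.0948 to 0.117). The low came at 15 and 30 min and the later heat libraries stood higher, though still below untreated, while the rapamycin values declined from each time to the next up to 90 min. Its mean change was −2.11 ± 0.33 (adjusted p 1.92e-04 in limma) in heat and −0.91 ± 0.33 (adjusted p 0.0642) with rapamycin. The rapamycin fall was called under 8 of 24 alternatives, a fit of each course alone among them.

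ERG6 (YML008C), the sterol methyltransferase, fell in heat. It stood at 1867 untreated and then 653.8, 413.7, 643.1, 604.3 and 551.4 in the heat shock course and at 1301 untreated and then 1426, 1409, 1301, 1207 and 1072 in the rapamycin course. Every treated heat library was below every rapamycin library. The mean change was −1.72 ± 0.21 in heat and −0.03 ± 0.21 with rapamycin (adjusted p 4.29e-05 and 0.933 in limma). ERG1, the squalene epoxidase, fell in both courses, by 1.34 in heat and by 0.57 with rapamycin (adjusted p 4.30e-06 and 0.00766). ERG7 (lanosterol synthase, −0.89), ERG25 (methylsterol oxidase, −1.42), ERG26 (sterol dehydrogenase, −0.75), ERG27 (sterol ketoreductase, −0.60) and ERG2 (sterol isomerase, −1.09) fell in heat and were not called with rapamycin. The heat falls of ERG25 and ERG27 were lost under quantile normalization. That of ERG27 was also lost under equal totals and a fit of each course alone. In this last fit ERG25, ERG27 and ERG2 were called lower with rapamycin. ERG5, the desaturase of the sterol side chain, changed by −0.61 ± 0.35 in heat (adjusted p 0.145) and −0.18 ± 0.35 with rapamycin and was not called.

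ERG11 (YHR007C), the lanosterol demethylase that azole drugs inhibit, fell in both courses. Its value was 7370 untreated and then 2521, 2480, 4310, 4342 and 3640 in the heat shock course and 5931 untreated and then 4752, 3805, 2796, 2401 and 2385 in the rapamycin course. In heat the lowest libraries were those at 15 and 30 min, and with rapamycin they were those at 90 and 120 min. The mean change was −1.13 ± 0.21 in heat and −0.93 ± 0.21 with rapamycin (adjusted p 6.78e-04 and 0.0107 in limma), and the heat call was lost under quantile normalization. ERG24 (YNL280C), the sterol reductase that follows it, stood at 1050 untreated and then 412.8, 503.8, 685.2, 601.2 and 508.3 in the heat shock course and 776.3 untreated and then 541.7, 465.4, 328.1, 354.1 and 328.2 in the rapamycin course. All treated libraries of both courses were below untreated. Mean changes were −0.97 ± 0.19 in heat and −0.97 ± 0.19 with rapamycin (adjusted p 9.64e-04 and 0.00589). ERG4, the last reductase, fell by 0.53 in heat and by 0.61 with rapamycin, and lost both calls under quantile normalization and the heat call with equal totals.

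ERG28 (YER044C) was the late sterol gene that fell with rapamycin and was not called in heat. It encodes the endoplasmic reticulum protein that holds the ERG25, ERG26 and ERG27 enzymes together. Its value was 415.0 untreated and then 574.5, 547.6, 497.7, 376.1 and 312.3 in the heat shock course and 453.4 untreated and then 313.3, 237.8, 196.4, 197.9 and 204.7 in the rapamycin course. The first 3 heat libraries were above untreated and the last pair below, whereas all rapamycin libraries were below. The mean change was 0.12 ± 0.16 (adjusted p 0.546 in limma) in heat and −1.0 ± 0.16 (adjusted p 0.0028) with rapamycin. The courses differed by 1.12 ± 0.23 (adjusted p 0.0034), a call kept under all 23 alternatives.

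The 2 courses also differed in when the late sterol genes were low. Of these 13 genes, 10 had their lowest heat library at 15 or 30 min, as did 38.9% of all tested genes, and 10 had their lowest rapamycin library at 90 or 120 min, as did 42.4% of all tested genes. The median change of the group was −1.34, −1.37, −0.77, −0.73 and −0.94 at 15, 30, 60, 90 and 120 min of heat, and −0.31, −0.40, −0.57, −0.67 and −0.84 at the same times of rapamycin. The mevalonate genes followed another course, with medians of −0.17, −0.61, −0.84, −0.85 and −0.82 in heat and values between −0.15 and 0.30 with rapamycin. Slopes against log2(time) were called in heat for 20 of the 44 genes (8 upward and 12 downward), where 53.7% of all tested genes had one (28.3% and 25.4%). With rapamycin they were called for 14 (2 upward and 12 downward), where 18.2% had one (8.32% and 9.88%), a count that ran from 2 to 26 over the alternatives. The slope was called higher in heat than with rapamycin for 7 of the 13 late sterol genes and lower for none. Over the 44 genes 21 slopes differed, where 47.1% of all tested genes did, with 26.0% higher and 21.0% lower. The difference of slopes was 0.96 for ERG3 (adjusted p 0.00152 in limma), 0.83 for ERG25 (0.00321) and 0.62 for ERG11 (0.00145).

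**Figure D2:**
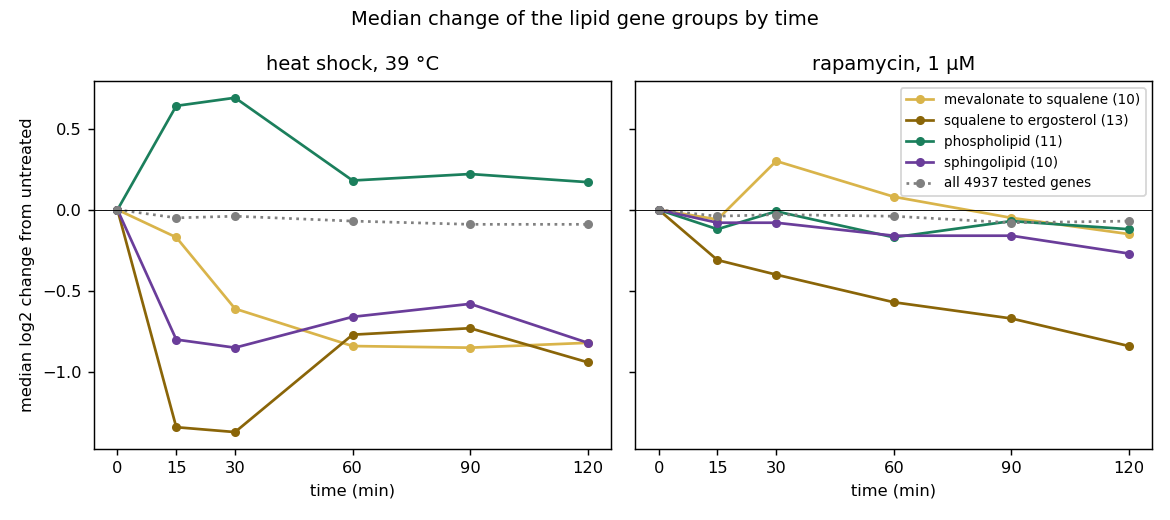
Median log2 change from untreated at each time of heat shock (left) and rapamycin (right) for 4 groups of lipid genes and for all 4937 tested genes; each point is a median over the genes named in the legend. In heat the late sterol line is lowest at 15 and 30 min (−1.34 and −1.37) and the phospholipid line is above 0 throughout, while with rapamycin the late sterol line declines to −0.84 at 120 min.

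Upc2 and Ecm22, the activators of sterol genes, bind an element with the core TCGTATA. It was searched on both strands from 250 bases before to 50 after the start codon in sacCer3 (R64), and 3 of the 23 sterol genes held it (13%), against 4.15% of all such windows. Within 500 bases before the start, a window chosen after seeing the data, it was found for 8 of the 23 (34.8%) and for 6.99% of all genes. Of the 8, 6 were late sterol genes. ERG3 and ERG13, the late and early genes with the largest falls in heat, are shown with the core in capitals, each 5′ to 3′ on the strand of the gene. The ERG3 stretch is chrXII:253526-253591 on the + strand and holds the core in both orientations, and the ERG13 stretch is chrXIII:20725-20755 on the − strand. Both ERG3 matches, at 320 and 280 bases before the start, lie outside the shorter window. A further ERG13 match at 95 bases, inside that window, is not printed.
ERG3: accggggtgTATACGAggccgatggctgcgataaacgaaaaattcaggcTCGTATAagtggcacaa
ERG13: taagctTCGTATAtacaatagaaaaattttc
A match is a description of letters and not of a bound site. UPC2 and ECM22 themselves were not called in either course (−0.09 and 0.26 in heat, −0.26 and −0.09 with rapamycin).

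INO1, which makes inositol 3-phosphate, and the methyltransferase genes OPI3 and CHO2 of the phosphatidylcholine branch rose in heat, and the first showed the largest rise of the phospholipid genes. INO1 (YJL153C) stood at 68.5 untreated and then 330.5, 376.9, 525.5, 510.7 and 514.8 in the heat shock course and at 72.9 untreated and then 148.9, 121.2, 170.7, 189.2 and 275.5 in the rapamycin course. All treated libraries of both courses were above untreated, and the 120 min library was the highest with rapamycin. INO1 had few reads untreated, 48 and 77 in the heat shock and rapamycin courses, and the ratio at 120 min was 7.52 in heat (95% exact interval 5.60 to 10.3) and 3.78 with rapamycin (2.94 to 4.91). The mean change of INO1 was 2.68 ± 0.22 in heat and 1.25 ± 0.22 with rapamycin (adjusted p 2.54e-06 and 0.00363 in limma).

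OPI3 (YJR073C) had values of 472.1 untreated and then 2870, 4191, 3064, 2398 and 2027 in the heat shock course and 355.9 untreated and then 327.9, 305.8, 331.9, 460.8 and 533.7 in the rapamycin course. Heat libraries were all above untreated with the highest at 30 min, 8.88 times untreated (95% exact interval 7.93 to 9.97), and the rapamycin libraries stood on either side of untreated. The mean change was 2.58 ± 0.27 in heat (adjusted p 1.27e-05 in limma) and 0.10 ± 0.27 with rapamycin (adjusted p 0.804). The difference of 2.47 ± 0.38 was the largest above 0 among the 44 genes (adjusted p 7.05e-04).

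CHO2 (YGR157W), the phosphatidylethanolamine methyltransferase that opens the methylation branch, was included with its opposite directions already known, so its difference is given as a description. Its value was 1797 untreated and then 2796, 3774, 3185, 3243 and 3436 in the heat shock course and 1982 untreated and then 1534, 1177, 1191, 839.0 and 855.0 in the rapamycin course. All heat libraries were above both untreated ones and all rapamycin libraries were below both, with the lowest at 90 and 120 min. The ratio to untreated was 2.10 at 30 min of heat (95% exact interval 1.97 to 2.24) and 0.423 at 90 min of rapamycin (0.391 to 0.458). The mean change was 0.86 ± 0.17 in heat and −0.86 ± 0.17 with rapamycin, with a difference of 1.73 ± 0.25. CHO2 and OPI3 act in sequence on the same lipid.

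**Figure D3:**
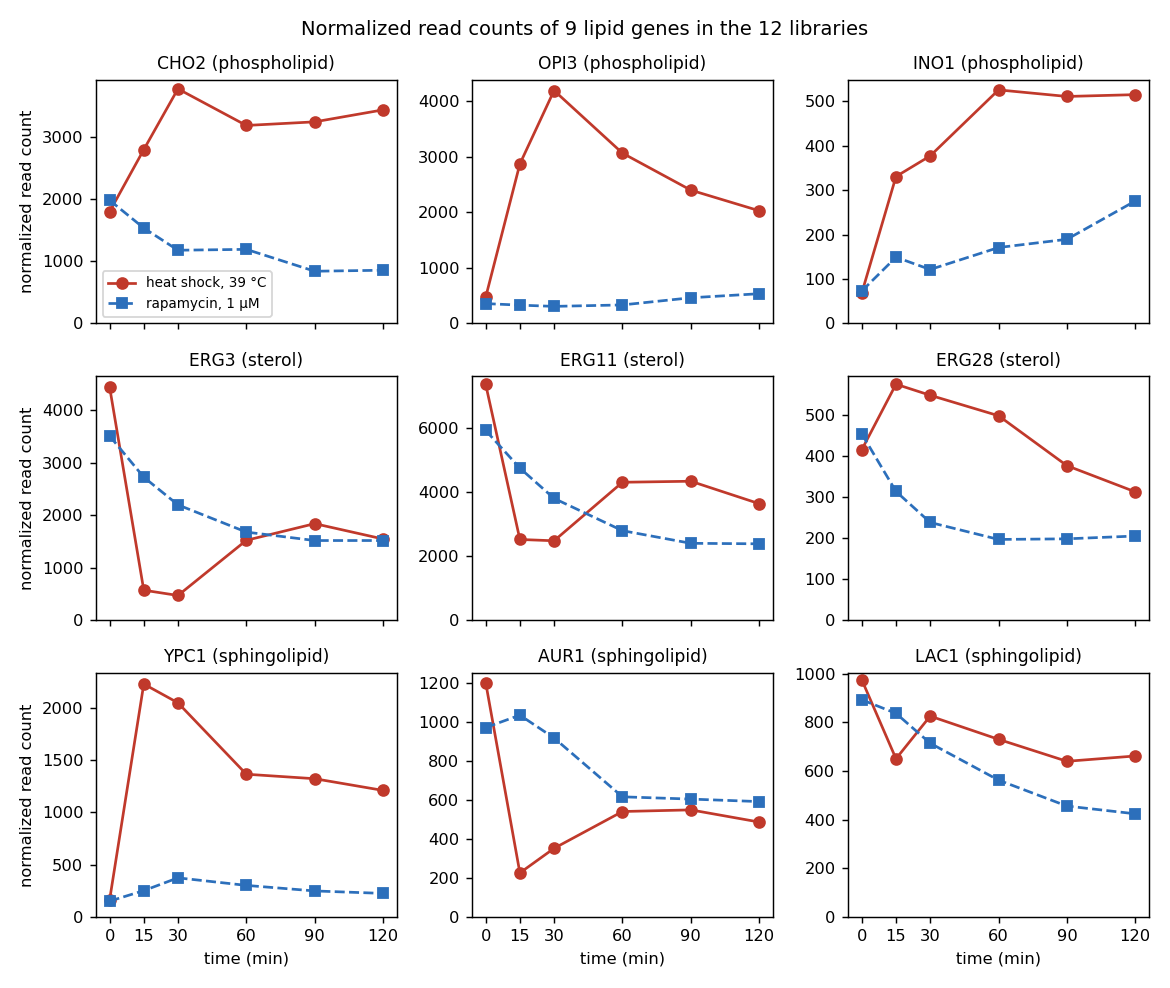
Normalized read count against time in minutes for 9 lipid genes, with the heat shock course as red circles and the rapamycin course as blue squares, 1 library per point. CHO2 rises to 3774 in heat and falls to 839.0 with rapamycin, ERG3 and ERG11 dip early in heat and decline steadily with rapamycin, and ERG28 is below untreated in all 5 rapamycin libraries.

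CHO1, the phosphatidylserine synthase, had a heat change of 0.42 ± 0.16 (adjusted p 0.0379 in limma) and a rapamycin change of −0.42 ± 0.16 (adjusted p 0.0788). CHO1 stood at 2307 and 1888 at 15 and 30 min of heat, against 1014 untreated, and was below untreated at 90 and 120 min. Its slope over the treated heat libraries was −0.47 per doubling of time (adjusted p 2.25e-04 in limma). Its heat call was lost under 6 of 24 alternatives. The phosphatidylserine decarboxylases are PSD1 in mitochondria and PSD2 in other membranes. PSD1 (YNL169C) stood at 456.4 untreated and then 833.8, 736.1, 486.8, 517.9 and 424.6 in the heat shock course and at 405.2 untreated and then 638.5, 575.3, 403.4, 404.5 and 373.9 in the rapamycin course. PSD2 (YGR170W) stood at 402.2 untreated and then 432.1, 501.4, 456.5, 469.6 and 453.0 in the heat shock course and at 470.5 untreated and then 409.2, 475.6, 436.8, 431.6 and 411.1 in the rapamycin course. PSD1 was highest at 15 min in heat and its mean change of 0.35 ± 0.14 had an adjusted p of 0.0427 in limma, a call lost under 8 of 24 alternatives, while PSD2 was called in neither course. CDS1, which makes CDP-diacylglycerol, the precursor of all these lipids, was called in neither course (−0.23 in heat and −0.04 with rapamycin).

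Of the 3 regulators, 1 rose and 1 fell in heat, and with rapamycin none was called. INO4 (YOL108C), a subunit of the activator, stood at 125.5 untreated and then 336.6, 288.0, 230.4, 196.3 and 203.3 in the heat shock course and 170.4 untreated and then 136.1, 168.7, 144.0, 163.9 and 183.1 in the rapamycin course. All heat libraries were above untreated with the highest at 15 min, and its mean change was 0.96 ± 0.14 in heat and −0.11 ± 0.14 with rapamycin (adjusted p 1.28e-04 and 0.612 in limma). INO2 (YDR123C), the other subunit, stood at 119.8 untreated and then 178.9, 129.2, 149.7, 186.0 and 218.0 in the heat shock course and 128.8 untreated and then 153.5, 155.2, 117.3, 142.6 and 164.1 in the rapamycin course, and was not called (0.50 ± 0.24 in heat, adjusted p 0.0879). OPI1 (YHL020C), the repressor, stood at 228.2 untreated and then 223.7, 196.8, 153.0, 131.5 and 117.1 in the heat shock course and 178.9 untreated and then 218.3, 158.6, 158.3, 170.7 and 178.8 in the rapamycin course. Its heat libraries declined with time to 117.1, and the mean change of −0.51 ± 0.16 had an adjusted p of 0.0131 in limma. That call was lost with equal totals, with the untreated libraries exchanged and without the 120 min heat library.

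The Ino2-Ino4 dimer binds an element with the core CATGTG. The core was found in 8 of the 11 phospholipid genes between 250 bases before and 50 after the start codon, in 1 of the 23 sterol genes and in 0 of the 10 sphingolipid genes, against 6.93% of all windows. Within 500 bases before the start, a window chosen after seeing the data, it was present in 9 of the 11, now with CHO2, and in 13.2% of all genes. OPI1 had none in this longer window. Of the 9 with it, 6 rose in heat, where 32.6% of all tested genes did, and CDS1, PSD2 and INO2 were not called. CHO2, whose heat rise was already known, counts among them through the longer window alone. In the shorter window the genes that rose were INO1, OPI3, CHO1, PSD1 and INO4, and those not called were the same. The heat calls of CHO1 and PSD1, among the 6, were lost under 6 and 8 of 24 alternatives. With rapamycin 1 of the 9 rose (INO1) and 1 fell (CHO2), where 12.3% of all tested genes rose and 13.9% fell.

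The stretches that hold the core before the 5 phospholipid enzymes that rose in heat are shown in lower case with the core in capitals, in either orientation, each 5′ to 3′ on the strand of the gene in sacCer3 (R64). They lie at chrX:136103-136193 for INO1, chrX:573070-573155 for OPI3, chrVII:802095-802185 for CHO2, chrV:208609-208649 for CHO1 and chrXIV:317821-317921 for PSD1, the CHO2 stretch on the + strand and the others on the − strand.
INO1: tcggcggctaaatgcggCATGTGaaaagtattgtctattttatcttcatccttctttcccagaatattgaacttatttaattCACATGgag
OPI3: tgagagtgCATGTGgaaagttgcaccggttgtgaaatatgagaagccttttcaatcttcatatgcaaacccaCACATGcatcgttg
CHO2: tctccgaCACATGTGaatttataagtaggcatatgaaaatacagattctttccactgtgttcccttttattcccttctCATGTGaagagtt
CHO1: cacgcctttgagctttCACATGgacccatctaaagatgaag
PSD1: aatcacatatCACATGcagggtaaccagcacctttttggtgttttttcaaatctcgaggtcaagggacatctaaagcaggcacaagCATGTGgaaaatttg
CHO2 holds 3 matches, 2 of which overlap as the palindrome CACATGTG, and all of them lie farther from the start than 250 bases.

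**Figure D4:**
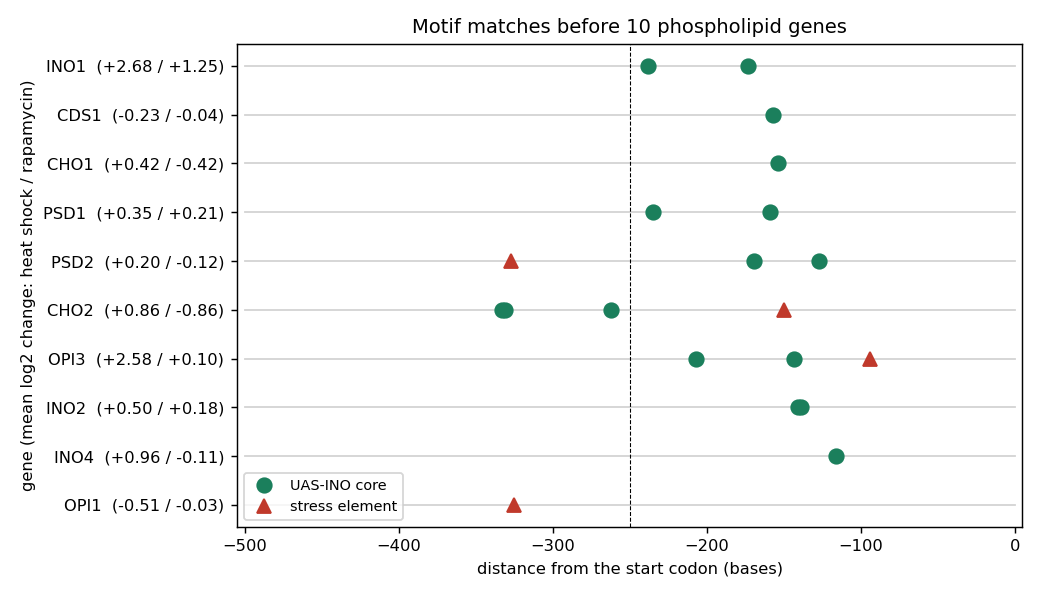
Position of the Ino2-Ino4 element core CATGTG (green circles) and of the stress element AGGGG (red triangles), on either strand, in the 500 bases before the start codon of 10 phospholipid genes; the dashed line marks 250 bases, and the mean log2 change in heat shock and with rapamycin stands beside each name. CHO2 has its core matches left of the dashed line, and OPI1 has none.

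All 10 sphingolipid genes changed in heat, where 69.8% of all tested genes did (32.6% rose and 37.2% fell). Both alkaline ceramidase genes, YPC1 and YDC1, whose products release long-chain bases from ceramide, rose, and the other 8 fell, 7 that build sphingolipids and ISC1, which breaks them down. With the untreated libraries exchanged the falls were 6, without LCB1 and ISC1. YPC1 (YBR183W) stood at 159.7 untreated and then 2227, 2047, 1364, 1321 and 1209 in the heat shock course and at 149.6 untreated and then 250.3, 372.6, 300.4, 247.3 and 223.7 in the rapamycin course. All treated libraries of both courses were above untreated, and the 15 min heat library reached 13.9 times untreated (95% exact interval 11.5 to 17.0), against 2.49 times (2.05 to 3.03) at 30 min of rapamycin. Its mean change was 3.30 ± 0.22, the largest of the 44 genes, in heat and 0.87 ± 0.22 with rapamycin (adjusted p 5.96e-07 and 0.0161 in limma).

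YDC1 (YPL087W) stood at 325.2 untreated and then 2103, 1957, 1533, 1367 and 1432 in the heat shock course and at 394.8 untreated and then 338.0, 419.0, 516.9, 495.7 and 533.7 in the rapamycin course. The heat libraries were all above untreated and highest at 15 min, and the rapamycin libraries were above untreated from 30 min on. YDC1 changed by 2.34 ± 0.12 in heat and 0.20 ± 0.12 with rapamycin (adjusted p 1.43e-07 and 0.241 in limma). The coding regions of YPC1 and YDC1 shared no identical run longer than 13 bases. The difference between the courses was called for both, at 2.43 ± 0.30 for YPC1 and 2.14 ± 0.17 for YDC1.

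Some other genes of complex sphingolipid synthesis, chosen after their values were seen, were called higher in heat, as were 32.6% of all tested genes. Not all genes of this synthesis rose. KEI1 was called lower in both courses, and CSG2 was called higher with rapamycin and was not called in heat. SUR1 and CSH1, which add mannose to inositol phosphorylceramide, changed by 0.43 ± 0.15 and 1.07 ± 0.15, and IPT1 and SKN1, which act on the next step, by 0.46 ± 0.12 and 1.28 ± 0.17 (adjusted p 0.0239, 1.16e-04, 0.00645 and 8.07e-05 in limma).

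Msn2 and Msn4, the general stress activators, bind an element written AGGGG. It was found between 250 bases before and 50 after the start in 3 of the 10 sphingolipid genes (30%), 3 of the 11 phospholipid genes (27.3%) and 1 of the 23 sterol genes (4.35%), against 21.6% of all windows. The 3 sphingolipid genes were YPC1, which rose in heat, and LCB1 and LCB2, which fell, while YDC1 had none there. Within 500 bases before the start it was found for 4 of the 10 (40%), YPC1, YDC1, LCB1 and LAG1, and for 34.1% of all genes. The stretches printed for the ceramidase genes hold matches outside the shorter window. Their bases nearest the start codon lie 357 and 266 bases before it for YPC1 and 266 for YDC1. A further YPC1 match at 79 bases is not printed. The stretches are shown with the element in capitals, in either orientation, 5′ to 3′ on the + strand, at chrII:595745-595855 for YPC1 and chrXVI:383165-383205 for YDC1.
YPC1: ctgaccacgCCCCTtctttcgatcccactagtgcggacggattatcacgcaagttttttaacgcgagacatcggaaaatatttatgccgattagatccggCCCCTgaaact
YDC1: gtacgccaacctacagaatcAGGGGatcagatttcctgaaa
The Hsf1 element, searched on both strands as TTC, GAA and TTC with 2 bases of any kind between each, was in 0 of the 44 windows and in 0.782% of all windows. The letters searched are 1 form of that element.

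Among the synthesis genes AUR1 (YKL004W), the inositol phosphorylceramide synthase, fell furthest in heat. It stood at 1204 untreated and then 225.7, 352.1, 541.4, 549.8 and 487.2 in the heat shock course and at 973.2 untreated and then 1037, 919.6, 617.0, 605.3 and 592.5 in the rapamycin course. The 15 min heat library was the lowest, at 0.188 of untreated (95% exact interval 0.161 to 0.218), and the rapamycin libraries were near untreated up to 30 min and lower after it. AUR1 changed by −1.55 ± 0.19 in heat and −0.41 ± 0.19 with rapamycin (adjusted p 4.06e-05 and 0.138 in limma). The slopes differed by 0.71 per doubling of time (adjusted p 4.74e-04).

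LCB1 and LCB2 encode the core of serine palmitoyltransferase, the first enzyme of the pathway. LCB1 (YMR296C) stood at 894.2 untreated and then 439.2, 510.9, 526.3, 490.2 and 383.9 in the heat shock course and at 457.2 untreated and then 743.6, 614.9, 599.9, 681.9 and 775.5 in the rapamycin course. The untreated values differed by 0.97 on the log2 scale, and all rapamycin libraries lay between the untreated values. Its mean change was −0.94 ± 0.19 in heat (adjusted p 0.00129 in limma) and 0.57 ± 0.19 with rapamycin (adjusted p 0.0502). With the untreated libraries exchanged the changes were 0.03 and −0.40, so the direction of LCB1 in both courses turned on that library. LCB2 changed by −1.0 ± 0.14 in heat and −0.17 ± 0.14 with rapamycin. TSC10, the ketosphinganine reductase, changed by −1.08 ± 0.13 and −0.17 ± 0.13, and SUR2, the sphinganine hydroxylase, by −0.97 ± 0.22 and −0.45 ± 0.22, with the heat falls alone called.

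The ceramide synthase genes LAC1 and LAG1 fell in both courses by a smaller amount. LAC1 (YKL008C) stood at 975.5 untreated and then 650.7, 826.2, 730.6, 640.2 and 662.1 in the heat shock course and 893.6 untreated and then 837.6, 714.6, 562.7, 455.9 and 424.0 in the rapamycin course. LAG1 (YHL003C) stood at 1102 untreated and then 859.2, 826.2, 881.1, 835.5 and 834.5 in the heat shock course and 1114 untreated and then 923.5, 893.5, 879.3, 713.9 and 651.2 in the rapamycin course. All treated LAC1 libraries were below untreated, and the rapamycin values of LAC1 declined at every step. LAC1 changed by −0.48 ± 0.14 in heat and −0.63 ± 0.14 with rapamycin (adjusted p 0.0119 and 0.0119 in limma), and LAG1 by −0.38 ± 0.13 and −0.47 ± 0.13 (adjusted p 0.0191 and 0.0218). All 4 calls were lost under quantile normalization, both heat calls under equal totals, and both rapamycin calls without the 120 min rapamycin library. The LAG1 rapamycin call was also lost without the 90 min library, and the LAC1 heat call with each course fitted alone. Their longest identical run was 19 bases. ISC1, which breaks complex sphingolipids down to ceramide, changed by −0.72 ± 0.19 in heat and 0.35 ± 0.19 with rapamycin, and against the other untreated library by 0.12 and −0.50.

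Set side by side, 11 of the 44 genes were called in the same direction in both courses, against 20.5% of all tested genes. INO1 and YPC1 rose in both, where 9.46% of all tested genes did, and 9 fell in both, among them IDI1, ERG20, ERG1, ERG11, ERG24, ERG4, LAC1 and LAG1, a pattern of 547 of the tested genes (11.1%). The difference of the mean changes, heat minus rapamycin, was called for 19 of the 44 genes, 8 above 0 and 11 below, where 45.9% of all tested genes were called (21.7% above and 24.2% below). Above 0 were 5 phospholipid genes (INO1, CHO1, CHO2, OPI3 and INO4), both ceramidases and ERG28. Below 0 were 6 sterol genes (ERG13, ERG12, MVD1, ERG1, ERG7 and ERG6) and 5 sphingolipid genes (LCB1, LCB2, TSC10, AUR1 and ISC1). No phospholipid gene was called below 0. With the untreated libraries exchanged the count was 13, and 10 of the 19 calls were kept, lost being ERG13, ERG12, ERG1, ERG6, INO4, LCB1, TSC10, AUR1 and ISC1. The difference was then −0.68 for ERG13 and −0.65 for ERG6.

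**Figure D5:**
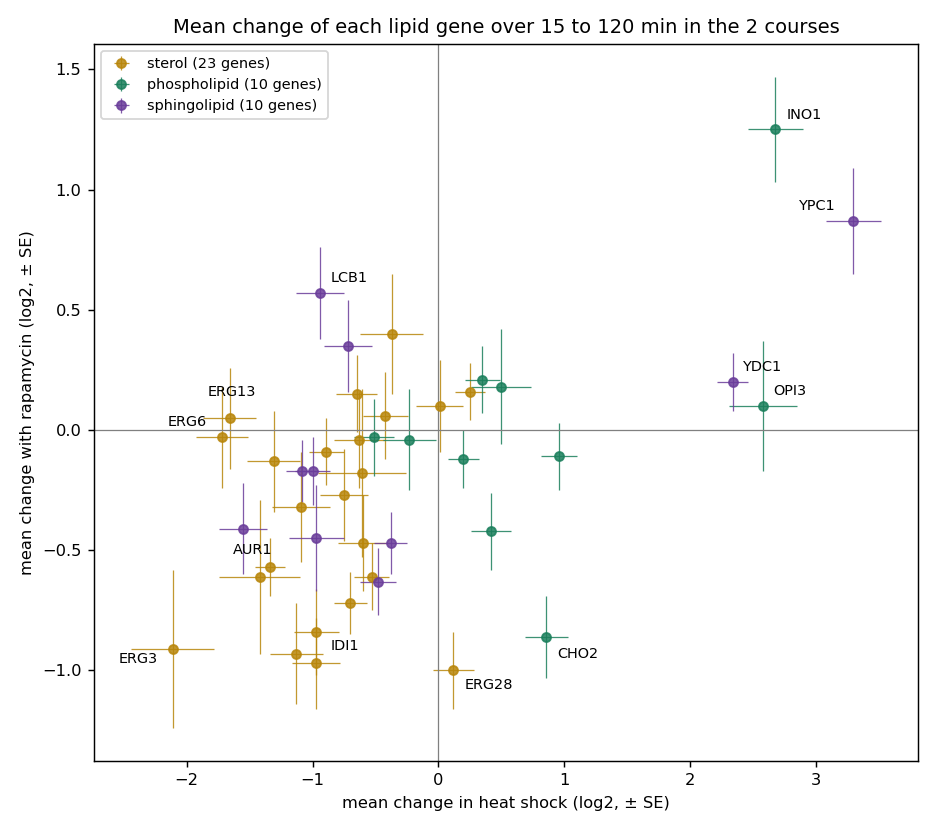
Mean log2 change of each of 43 lipid genes in heat shock (x axis) and with rapamycin (y axis), with SE bars from the limma fit; colours give the pathway. CHO2 sits at lower right (0.86 and −0.86), INO1 and YPC1 at upper right, and most sterol genes left of 0.

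Lipid genes outside the 44 were taken from 3 further lists, of sterol uptake, transport, esterification and regulation (38 genes listed), of other phospholipid and lipid droplet metabolism (48) and of fatty acid elongation and other sphingolipid functions (32). Heat raised 18 and lowered 10 of the sterol list, raised 25 and lowered 13 of the phospholipid list, and raised 16 and lowered 10 of the sphingolipid list. These heat rises were 47.4% to 52.1% of the lists, and the heat falls 26.3% to 31.2%. Among all tested genes 32.6% rose and 37.2% fell in heat. With rapamycin 3 rose and 3 fell, 9 rose and 5 fell, and 6 rose and 7 fell in the same order of lists. The rises were 7.89%, 18.8% and 18.8% of the lists, and the falls 7.89%, 10.4% and 21.9%. Of all tested genes, 12.3% rose and 13.9% fell with rapamycin. The median change in heat was 0.33, 0.40 and 0.30 for the lists, where it was −0.75, 0.42 and −0.83 for the sterol, phospholipid and sphingolipid genes of the 44. Over all tested genes this median was −0.08.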

How the data were processed

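PolyA RNA-seq libraries, 12 in all, were analysed from 1 deposited table of 5045 genes. The submitters' processing notes name Bowtie (an aligner), HTSeq (a read counter) and the genome build sacCer3. Tool versions, annotation, strand use and the normalization method are not given in the sources used here. The deposited values are a signal, read counts divided by 1 size factor per library by the authors, as the values themselves show. In every library all values (100.0%) were whole multiples of 1 step within 0.05 read, which gave back whole reads for the count tests.

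The members and gene lists were chosen with earlier results of these data known. Genes with a mean of at least 10 were tested (4937, with 108 left out). All 12 libraries entered 1 model of log2(value + 1) in limma 3.58.1 (R 4.3.3), whose variances were moderated with a trend on the mean. For each course it estimated the untreated level, the mean shift of the treated libraries and a trend over the doublings of time between them. Shifts and trends were tested in each course and compared between courses. An added pseudocount understates the change of genes with few reads. Alternatives, with edgeR 4.0.16 quasi-likelihood and DESeq2 1.42.0 tests on the recovered reads among them, numbered 24.

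Counts cover all 44 genes, and 1 of them is not reported here by name. Values in every library are given for CHO2, the 3 largest called rises and falls of each course, the largest per pathway, the 3 largest differences each way, the regulators and the paired genes. For others, the 2 largest rises and falls per list are named, with UPC2, ECM22, ORM1 and ORM2. SUR1, CSH1, IPT1, SKN1, KEI1 and CSG2 were added after their values were seen. All 44 symbols matched the R64 annotation of RefSeq, from which sequences and positions were read, and none overlapped another gene there. The labels name no batch.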

Additional observations from a re-analysis of the deposited data

Results flagged for a closer look

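The mean change differed between heat shock and rapamycin in 19 of the 44 genes (43.2%) by the limma contrast of the courses, heat minus rapamycin on the log2 scale. Among all tested genes the share was 45.9% (21.7% above 0 and 24.2% below), so the count was near that share. The difference was above 0 for OPI3 (2.47), YPC1 (2.43), YDC1 (2.14), CHO2 (1.73), INO1 (1.43), ERG28 (1.12), INO4 (1.07) and CHO1 (0.83). It was below 0 for the sterol genes ERG13 (−1.71), ERG6 (−1.69), MVD1 (−1.19), ERG12 (−0.81), ERG7 (−0.79) and ERG1 (−0.77). It was also below 0 for the sphingolipid genes LCB1 (−1.51), AUR1 (−1.14), ISC1 (−1.07), TSC10 (−0.91) and LCB2 (−0.83). For ERG13, ERG6, LCB1 and ISC1 the untreated libraries themselves differed by 0.52 to 0.97. With those libraries exchanged the differences of these genes were −0.68, −0.65, 0.43 and 0.62, none of them called. The calls of ERG12, ERG1, INO4, TSC10 and AUR1 were lost as well, and 10 of the 19 were kept. CHO2 was included with its opposite directions already known, so its difference is a description.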

How the results depend on the processing

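No paired analysis was possible because each time point of each course had 1 library. Depth limited INO1 most, with 48 and 77 reads in the untreated heat shock and rapamycin libraries. Over 24 alternatives 30 to 37 of the 44 genes were called in heat. The count with rapamycin was 21 with each course fitted alone and 20 with a shared untreated intercept, which also gave 30 genes for the difference. Gained with rapamycin when each course was fitted alone were ERG25, ERG27, ERG2, ERG3, CHO1, LCB1, SUR2 and AUR1. The count of rapamycin slopes was 26 with each course alone, 9 with equal totals, 6 under quantile normalization and 7 with the slope in minutes, and 2 to 21 when 1 library was left out, with 2 without the 120 min rapamycin library. Exchanging the untreated libraries changed the sign of 17 of 88 mean changes, 15 of them not called with the own library. Called before or after were the rapamycin change of HMG2 (−0.52) and the heat changes of LCB1 (0.03) and ISC1 (0.12). The differences of LCB1 (0.43) and ISC1 (0.62) also reversed. With a window of 500 bases, a choice made after seeing the data, the sterol element was in 27.3% of the 44 genes, 34.8% of the sterol genes and 46.2% of the late sterol genes, and the stress element in 34.1% of the 44 and 26.1% of the sterol genes, where it was in 34.1% of all genes and the sterol element in 6.99%. The cause of these shifts was not tested. The alternative with the untreated library of the other course was also added after seeing the data.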

Other observations

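Among lipid genes outside the 44, DAN1, a cell wall mannoprotein gene of the anaerobic programme, rose in heat, where it stood at 18.3 to 64.2, against 2.9 untreated, a value below that of 3 reads. HRD1, a ubiquitin ligase that degrades HMG-CoA reductase, rose by a mean of 1.80 (log2) in heat. HRD1 and ROX1, the repressor of hypoxic genes, rose with rapamycin (0.77 and 1.02). ATF2, a sterol acetyltransferase, and NCP1, the P450 reductase that serves ERG11, fell in heat (−1.78 and −1.61). HAP1, a haem-dependent activator, and YSP2, a sterol transfer protein, fell with rapamycin (−0.66 and −0.48). In heat HAP1 was called higher and YSP2 lower. URA7, the CTP synthase that feeds CDP-lipid synthesis, fell in both courses. It stood at 2872 untreated and 25.4, 36.8, 171.5, 192.2 and 238.3 at 15, 30, 60, 90 and 120 min in the heat shock course and 2742 untreated and 2247, 1909, 1403, 1087 and 1042 at 15, 30, 60, 90 and 120 min in the rapamycin course. All treated libraries of both courses were below untreated, with mean changes of −4.91 ± 0.28 in heat and −0.90 ± 0.28 with rapamycin (adjusted p 2.74e-07 and 0.0398 in limma). HNM1, the choline transporter, fell by 0.79 with rapamycin and was also called lower in heat. UME6, a meiotic repressor that also acts on INO1, fell by 1.12 in heat. GPT2, a glycerol phosphate acyltransferase, and CLD1, a cardiolipin phospholipase, rose in heat (2.06 and 1.69). CLD1 and PLB1, a phospholipase B, rose with rapamycin (0.93 and 1.16). GPT2 was also called higher with rapamycin, and PLB1 in heat.

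The fatty acid elongases ELO2 and ELO3 fell in heat, and ELO2 was also called lower with rapamycin. ELO2 stood at 1774 untreated and then 206.4, 308.2, 480.9, 467.6 and 492.1 in the heat shock course and 1057 untreated and then 1019, 833.5, 746.7, 647.0 and 668.5 in the rapamycin course. ELO3 changed by −1.91 ± 0.22 in heat and ELO2 by −2.25 ± 0.15 (adjusted p 2.46e-05 and 6.13e-07 in limma). PHS1, the dehydratase of the elongation cycle, and LIP1, a ceramide synthase subunit, fell with rapamycin, and PHS1 was also called lower in heat. LIP1 stood at 303.8 untreated and then 506.4, 317.7, 281.6, 326.8 and 352.2 in the heat shock course and 393.8 untreated and then 208.3, 197.1, 206.9, 197.9 and 211.6 in the rapamycin course. All 5 rapamycin libraries of LIP1 were below untreated, and its heat change of 0.20 was not called. YPK2, a kinase of sphingolipid signalling, and HFD1, a fatty aldehyde dehydrogenase of long-chain base breakdown, rose in heat (3.01 and 2.44). RSB1, a long-chain base transporter, and LCB5, a long-chain base kinase, rose with rapamycin (0.93 and 0.85). Both RSB1 and LCB5 were also called higher in heat. ORM1 and ORM2, which hold serine palmitoyltransferase down, had heat changes of −0.17 (not called) and 1.17.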
